A study of Rattus norvegicus with 12 samples.

Results

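Enriched and isolated housing were compared after 1 day of forced abstinence from cocaine, in the nucleus accumbens shell of 6 of the 12 rats that were sequenced. The comparison took the 3 rats whose labels carry enriched housing and 1 day (EE1D; rats A12, A16 and A27) and the 3 whose labels carry isolated housing and 1 day (IC1D; rats A2, A20 and A23). The other 6 rats, at 21 days of abstinence (IC21D and EE21D), were left out of this contrast and are used below only to show how the same transcripts stood later. All of the animals were male Sprague-Dawley rats, carried a jugular catheter, had learned to press a lever for intravenous cocaine, and were killed right after a 1-h test in which the lever gave the drug's cues without drug. IC1D rats stayed alone in a standard cage, whereas EE1D rats were moved for that day to a large group cage that held toys, tubes and a wheel to run in. Company, exercise and novelty therefore cannot be told apart, each group had cocaine, and the labels do not say which enriched rats shared a cage. A transcript was kept if 10 or more counts were found in at least 3 of the 6 rats, which left 16820 of the 41064 Ensembl transcripts listed.

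The nucleus accumbens shell is the part of the ventral striatum that joins dopamine input from the midbrain with glutamate input from the cortex, hippocampus and amygdala. Most of its neurons are GABAergic medium spiny neurons that express D1 or D2 dopamine receptors, and the region is known for its part in cue-driven drug seeking. Such seeking grows over weeks of abstinence, which is called incubation, and the 1-day groups come before that growth. Environmental enrichment is known to lower cocaine seeking, and a contrast at 1 day asks what a brief stay changes in the tissue. In the study's pairwise tests, on larger groups, lever pressing for the cues did not differ by housing after 1 day. After 21 days it was greater in isolated rats. The files list transcripts by Ensembl identifier without gene names, so all but a pair of the transcripts are given here by identifier or rank, markers of the tissue and of its cell types were not checked, and isoforms were not summed per gene. In bulk tissue, fewer cells of a type and less RNA per cell cannot be told apart.

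Depth and composition differed among the 6 libraries. Total counts ran from 11725831 to 24833968, and the 8 transcripts with the most counts took from 52.3% to 72.6% of them. Rat A16 of EE1D stood apart, with the largest share on those 8 transcripts, the fewest kept transcripts detected (15760, against 16174 to 16473 in the others) and the lowest median Spearman correlation with the other rats (0.825, against 0.848 to 0.865). It also lay alone on the first principal component, which held 28.4% of the variance of log2 CPM (CPM being the count relative to the library's total, scaled by edgeR's TMM factors). Counts outside the 8 abundant transcripts ranged from 5360903 to 8386478 in EE1D and from 6973304 to 10931424 in IC1D, so the enriched group was the shallower on the rest of the transcriptome. Rats of like housing were no closer to each other than rats of unlike housing. The median Spearman correlation across the kept transcripts was 0.845 for the 3 pairs within EE1D, 0.856 for the 3 pairs within IC1D and 0.853 for the 9 pairs between housing conditions.

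No transcript passed an adjusted p-value of 0.05 between EE1D and IC1D (0 of 16820, smallest adjusted p = 0.0883, edgeR's quasi-likelihood test with Benjamini-Hochberg adjustment). At an adjusted p-value under 0.1, 7 transcripts passed, or 0.0416% of those tested, 4 of them higher in EE1D (0.0238%) and 3 lower (0.0178%). Each of the 7 had under 10 counts in every rat of the lower group, and 6 had 0 there, so they were kept through the other group alone and had to differ. A nominal p-value, that is one before adjustment, of 0.05 or less was seen for 582 transcripts (3.46%), where uniform p-values would give 841. Of these, 228 (1.36%) were higher in EE1D and 354 (2.1%) lower, and 509 of the 582 had counts in every rat. The lean toward lower levels was smaller or reversed when any IC1D rat was left out. Without IC1D rat A20, the deepest library outside the 8 abundant transcripts, 316 transcripts reached that p-value, 184 of them higher and 132 lower. Without A2 the numbers were 389 higher and 433 lower, and without A23 they were 256 and 293. The lean stayed when an EE1D rat was left out. With an IC1D rat left out, the 101 transcripts kept through IC1D alone (26 for EE1D) no longer pass the count filter. A fit on the 12575 transcripts with 10 or more counts in all 6 rats leaves out those kept through 1 group alone, among others. It gave 266 higher and 328 lower at that nominal p-value. The part of the count filter in the moves seen without an IC1D rat was not tested. DESeq2's Wald test on the same counts called 136 transcripts (0.809%), 53 higher (0.315%) and 83 lower (0.493%). With limma's voom and quality weights 0 were called, and 820 of the 16820 had a nominal p-value of 0.05 or less, 341 higher and 479 lower.

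**Figure D1:**
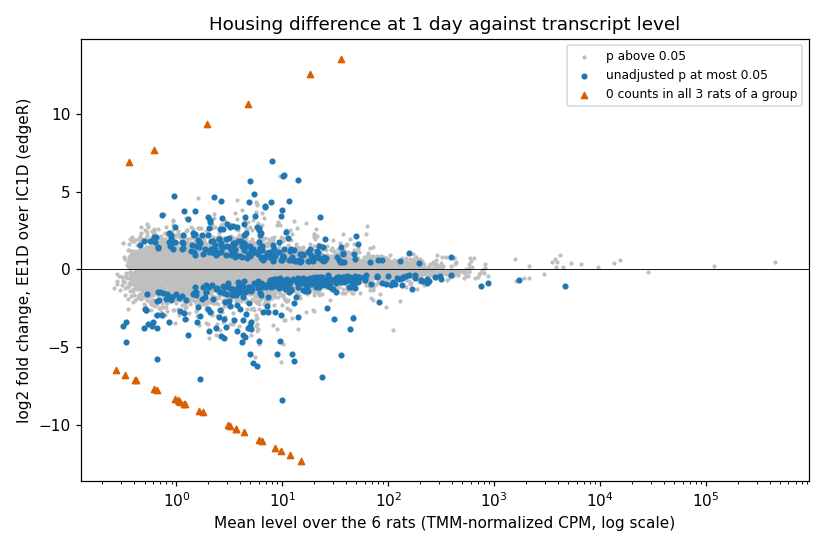
Fitted log2 fold change of EE1D over IC1D (vertical axis) against the mean level over the 6 rats in TMM-normalized CPM (horizontal axis, log scale), 1 point per kept transcript. Blue points have a nominal p-value of 0.05 or less; orange triangles, 31 in all, have 0 counts in all 3 rats of a group, and their fitted size depends on how edgeR treats 0.

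For 1754 transcripts (10.4% of the 16820), each rat of one group lay above each rat of the other in TMM-normalized CPM, 794 (4.72%) with EE1D above and 960 (5.71%) with IC1D above. With 3 rats against 3, a share of 0.1 would be separated in this way without any housing difference, and 10.4% is near that share. Most transcripts at a nominal p-value of 0.05 or less were separated in this way (514 of 582), while 68 were not. Both measures come from the same counts, and a small p-value favors separated groups, so this share is no separate support. Among the 509 with counts in every rat, the absolute log2 fold change had a median of 1.12 and ran from 0.36 to 6.94.

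The 10 smallest p-values in each direction belonged to transcripts whose groups were fully separated, and many were found in one housing condition alone. Among the 10 higher in EE1D, 6 had counts in all 6 rats, and over all 10 the edgeR adjusted p-values ran from 0.0883 to 0.840. Only 2 of the 10 lower in EE1D had counts in all 6 rats. Over all 10 of those, the edgeR adjusted p-values ran from 0.0883 to 0.257. DESeq2 put all 20 past an adjusted p-value of 0.05, the largest of its values being 0.000552 among the higher and 3.56e-08 among the lower. The smallest two-sided p that an exact permutation test allows for 3 rats against 3 is 0.1, and each of the 20 had that value, which full separation fixes. The 20 were picked by their p-values in these same counts, and many passed the filter only through the group where they were high. Neither the DESeq2 values nor the permutation values are therefore separate support for them.

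The transcript with the smallest p-value, ENSRNOT00000077828, had 480, 709 and 742 counts in EE1D rats A12, A16 and A27 and 0 counts in each of the 3 IC1D rats. All enriched rats held it in quantity and no isolated rat did. EE1D rats averaged 36.6 ± 6.0 CPM (SD, n = 3). Against a floor of 3 counts per library in IC1D this is at least 276-fold higher (edgeR adjusted p = 0.0883, DESeq2 adjusted p = 2.60e-20). At 21 days the transcript did not follow housing. It had 1064, 0 and 0 counts in IC21D rats A9, A24 and A3 and 1636, 0 and 0 in EE21D rats A13, A14 and A1.

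Among transcripts higher in EE1D with counts in every rat, the smallest p-value belonged to ENSRNOT00000088616. Its counts were 198, 406 and 199 in EE1D and 3, 5 and 1 in IC1D rats A2, A20 and A23, so the isolated rats lay at or near the floor of 3 counts and the transcript was kept through EE1D alone, by which it had to differ. The level was 15.9 ± 8.26 CPM in EE1D and 0.119 ± 0.0603 CPM in IC1D (SD, n = 3), a fitted log2 fold change of 6.94 that rests on those few counts (95% interval 5.34 to 8.54, edgeR adjusted p = 0.0915, DESeq2 adjusted p = 2.60e-20). At 21 days it was high in all rats but 1, with 292, 11 and 177 counts in IC21D and 289, 295 and 278 in EE21D.

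In the other direction, the counts of ENSRNOT00000092374 were 543, 631 and 478 in IC1D and 0 in each EE1D rat. This is the mirror of the first pattern, with the transcript held by all isolated rats. IC1D rats averaged 23.8 ± 2.14 CPM (SD, n = 3), and EE1D was at least 136-fold lower (edgeR adjusted p = 0.0883, DESeq2 adjusted p = 4.43e-17). Counts at 21 days were 689, 0 and 627 in IC21D and 700, 0 and 571 in EE21D, so 1 rat of each housing condition lacked it.

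ENSRNOT00000079433 had the smallest p-value among transcripts lower in EE1D with counts in all 6 rats. IC1D rats had 587, 730 and 456 counts and EE1D rats 42, 65 and 45, with levels of 25.2 ± 0.236 CPM and 2.97 ± 1.00 CPM (SD, n = 3). The spread within IC1D was small, and the 2 groups lay 8.48-fold apart (log2 fold change -3.08, 95% interval -3.85 to -2.32, edgeR adjusted p = 0.124, DESeq2 adjusted p = 1.13e-21). At 21 days both levels occurred under both housing conditions, with 67, 358 and 729 counts in IC21D and 724, 629 and 50 in EE21D.

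**Figure D2:**
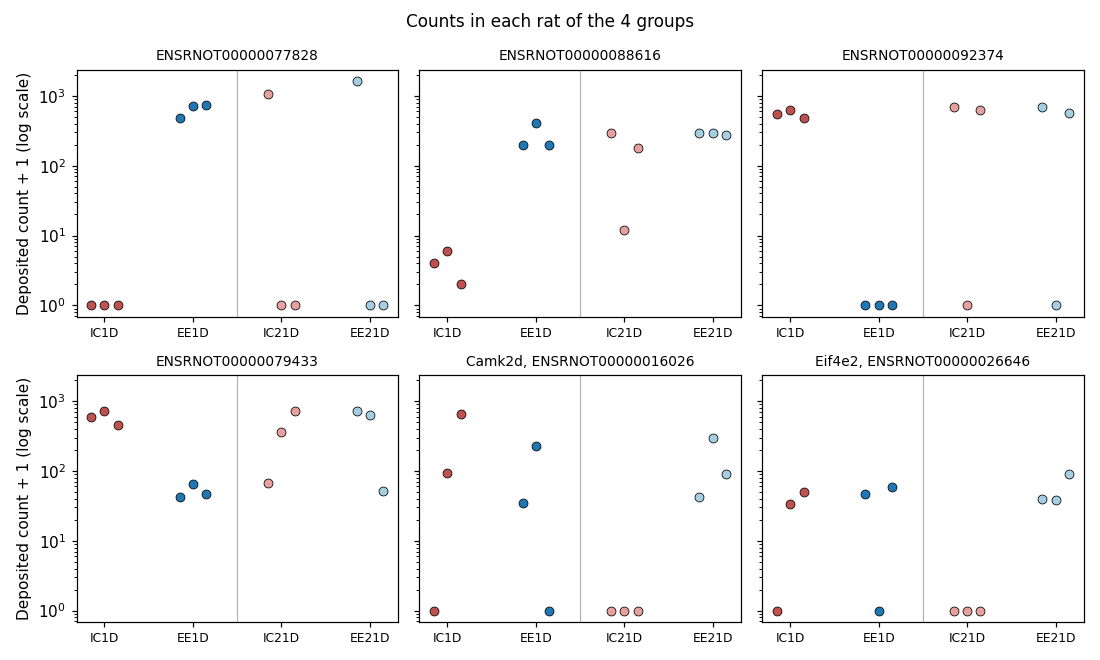
Deposited count plus 1 (log scale) in each rat, by group, for the 4 transcripts with the smallest p-values by the rule used and for the Camk2d and Eif4e2 transcripts; a point at the bottom is a count of 0. For those 4 transcripts the 1-day groups are far apart, and the 21-day groups overlap.

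The other transcripts among the 10 smallest p-values in each direction showed the same presence in one group, or smaller differences between levels found in every rat. The second-ranked transcript among those higher in EE1D had 1371, 938 and 1371 counts there and 0 in IC1D, at least 538-fold higher. The third had 135, 158 and 209 counts in EE1D and 0 in IC1D, a level of 9.46 ± 0.243 CPM (SD, n = 3), so its scaled level was nearly equal in the 3 enriched rats. The fifth had counts in every rat, 327, 266 and 383 in EE1D against 42, 42 and 12 in IC1D, a 14.3-fold difference (adjusted p = 0.224 from edgeR). The sixth differed by less, 35.3 ± 0.425 CPM in EE1D against 12.7 ± 3.00 CPM in IC1D (SD, n = 3), or 2.78-fold (adjusted p = 0.510 from edgeR). Among those lower in EE1D, the sixth-ranked lay between 1067 and 3417 counts in IC1D and between 70 and 133 in EE1D, a 14.02-fold difference whose spread in IC1D was wide, at 81.7 ± 36.7 CPM (SD, n = 3; adjusted p = 0.241 from edgeR).

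Presence in every rat of one housing condition and 0 counts in the other was found for 31 transcripts. In 25 of them the transcript was held by all IC1D rats and had 0 counts in all EE1D rats, and in 6 it was held by all EE1D rats and had 0 in all IC1D rats. These passed the filter through the group that held them, and so had to differ. The counts where present ran from 10 to 1748 for the 25 and from 10 to 1371 for the 6. Against the floor of 3 counts per library, the 25 were at least 3.08-fold to 173-fold lower in EE1D (median bound 18.8) and the 6 at least 5.38-fold to 538-fold higher (median bound 50.4). With at least 30 counts asked of each rat in the group that held the transcript, 16 and 3 were left, and with at least 100 counts, 6 and 3. The group with more absent transcripts was the shallower one outside the 8 abundant transcripts, and the part of depth in this was not tested.

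Counts of 0 that divided the rats without regard to housing were more frequent. Among the kept transcripts, 1278 had 0 counts in 1 rat, 680 in 2 rats and 298 in 3 rats. Of these 298, the 3 rats at 0 were the whole of one housing group for 31 (10.4%) and came from both groups for 267. In 172 of the 267, 2 EE1D rats and 1 IC1D rat were at 0, and in 95 it was 1 EE1D rat and 2 IC1D rats. Abundant transcripts were affected as well. Between 19 and 68 transcripts per rat had 0 counts in that rat and 100 or more in each of the other 5, with the highest number in A16.

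At 21 days, none of the 31 transcripts kept to the housing condition that had held it at 1 day. Of the 25 at 0 in EE1D, each had counts in at least 1 EE21D rat, 21 had counts in both 21-day groups and 4 in EE21D rats alone. All 3 EE21D rats held 8 of them and all 3 IC21D rats held 1. By rat, EE21D animals held 14 to 19 of the 25 and IC21D animals A9 and A3 held 16 and 13, while A24 held 4. Rat A24 had counts on 73.8% of the 16820 kept transcripts, against 94.5% to 98.0% in the other 21-day rats. All 6 transcripts at 0 in IC1D had counts in both 21-day groups.

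**Figure D3:**
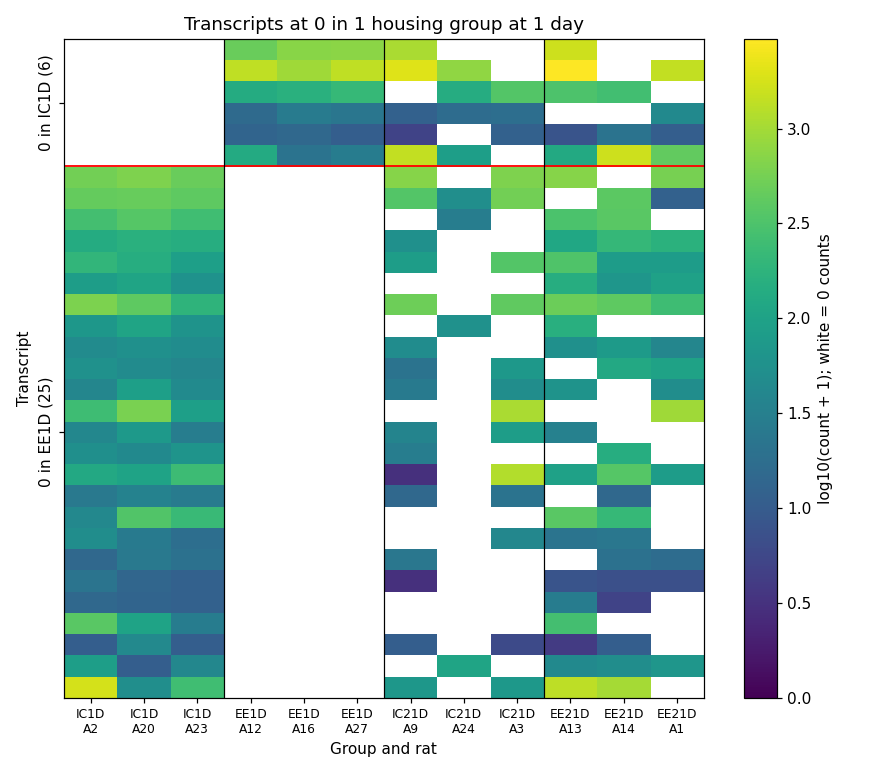
Each row is 1 of the 31 transcripts at 0 in all 3 rats of a housing group at 1 day, each column 1 rat, and color gives log10 of the count plus 1, with white for 0 counts. The 6 rows above the red line are at 0 in IC1D and the 25 below it at 0 in EE1D; in the 21-day columns on the right, counts and zeros are mixed under both housing conditions.

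A pair of transcripts is tied to a gene name in the study. Camk2d encodes the delta subunit of calcium/calmodulin-dependent protein kinase II, a kinase that couples calcium entry to changes in synaptic strength. Its transcript ENSRNOT00000016026 had 34, 229 and 0 counts in EE1D rats A12, A16 and A27 and 0, 91 and 649 in IC1D rats A2, A20 and A23. Each group thus held 1 rat at 0 and 1 far above the others, and the EE1D counts lay within the range of IC1D. Levels were 5.48 ± 7.52 CPM in EE1D and 12.9 ± 19.7 CPM in IC1D (SD, n = 3), with a log2 fold change of -1.24 (95% interval -6.82 to 4.35, adjusted p = 0.996 from edgeR; exact permutation test, two-sided p = 0.8). This fold change turned positive, at 1.78, without IC1D rat A23. At 21 days the transcript had 42, 291 and 90 counts in EE21D and 0 in each IC21D rat. The difference between the housing effects at 1 and 21 days was not called (adjusted p = 0.989 from edgeR), nor was it for the next transcript (adjusted p = 0.989 from edgeR).

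Eif4e2 encodes a relative of the cap-binding protein eIF4E that binds the mRNA cap and is known mainly for repressing translation. The counts of transcript ENSRNOT00000026646 were 46, 0 and 58 in EE1D and 0, 33 and 49 in IC1D. Present and absent rats were again found under both housing conditions, while at 21 days all 3 EE21D rats held it, with 39, 37 and 89 counts, and no IC21D rat did. The level was 1.93 ± 1.70 CPM in EE1D and 1.28 ± 1.35 CPM in IC1D (SD, n = 3), a log2 fold change of 0.60 (95% interval -3.79 to 4.99, adjusted p = 0.996 from edgeR; exact permutation test, two-sided p = 0.8). Leaving out single rats moved this fold change between 0.013 (without A2) and 1.72 (without A23). For both transcripts these intervals are too wide to exclude large differences of either sign.

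How small a difference could be seen depended on the level of the transcript. Below 1 CPM, where 1935 of the kept transcripts lay, the SD of log2 CPM between rats of a group had a median of 0.99 and the 95% interval of the log2 fold change a median extent of 2.21 to either side. Between 30 and 100 CPM (2168 transcripts) these were 0.29 and 0.57. Taking each interval by itself, that of 4928 transcripts (29.3%) lay within 2-fold in either direction, among them 66.6% of the transcripts between 30 and 100 CPM and 0 below 1 CPM. For the other 11892, a difference of 2-fold or more between housing conditions was within the interval. Counts of 0 followed the same order. A kept transcript had 0 counts in at least 1 rat in 42.0% of cases below 1 CPM and in 1.66% at 100 CPM or more. The share at a nominal p-value of 0.05 or less stayed between 3.00% and 4.98% across these levels. Of the 602 transcripts at 100 CPM or more, 4 at that p-value were higher and 26 lower in EE1D. Over all levels 228 were higher and 354 lower, and every level leaned lower except 1 to 3 CPM, with 57 and 52. How the split at 100 CPM or more moved with single rats was not tested.

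**Figure D4:**
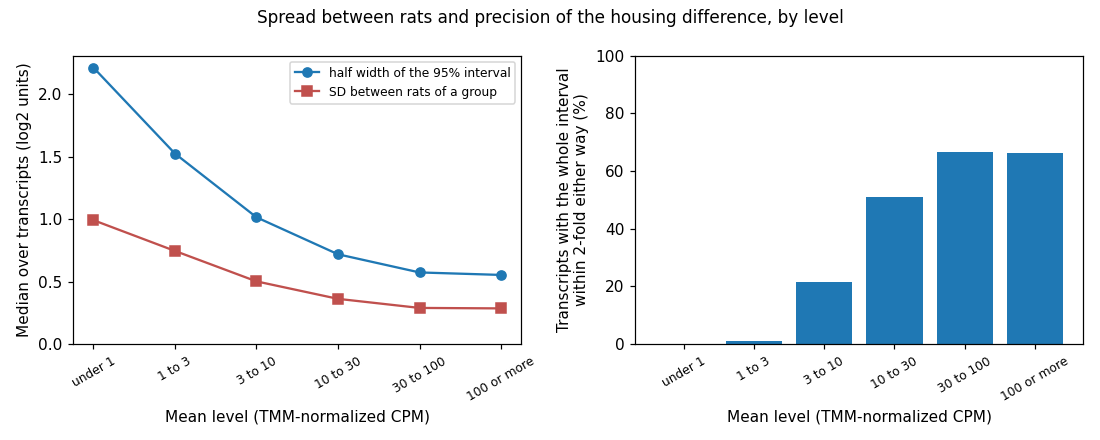
Left, median over transcripts of the SD of log2 CPM between rats of a group and of the extent to either side of the 95% interval of the log2 fold change, by mean level in CPM. Right, percent of transcripts whose whole interval lies within 2-fold in either direction, which rises from 0 below 1 CPM to 66.6% between 30 and 100 CPM.

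The housing difference at 1 day was set beside that at 21 days (EE21D over IC21D), which comes from other rats. Among the 228 that had a nominal p-value of 0.05 or less and were higher in EE1D, 92 (40.4%) were also higher in EE21D than in IC21D, with a median log2 fold change of -0.18 at 21 days. Of the 354 lower in EE1D, 119 (33.6%) were also lower in EE21D, with a median of 0.19. Together 36.3% of the 582 kept their sign, against 41.3% of all 16820 transcripts. The same p-value was reached at 21 days by 46 of the 582 (7.90%), 10 with the same sign and 36 with the opposite sign, and by 567 of all kept transcripts (3.37%). Over all kept transcripts the Spearman correlation of the 2 log2 fold changes was -0.22 as a description across transcripts, which are not independent. It was -0.24 without IC21D rat A24. The share of transcripts that kept their sign moved with the libraries that stood apart, to 42.4% without EE1D rat A16 and 31.1% without A24, against 43.3% and 40.2% of all transcripts. Without both it was 36.4% against 40.3%.

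**Figure D5:**
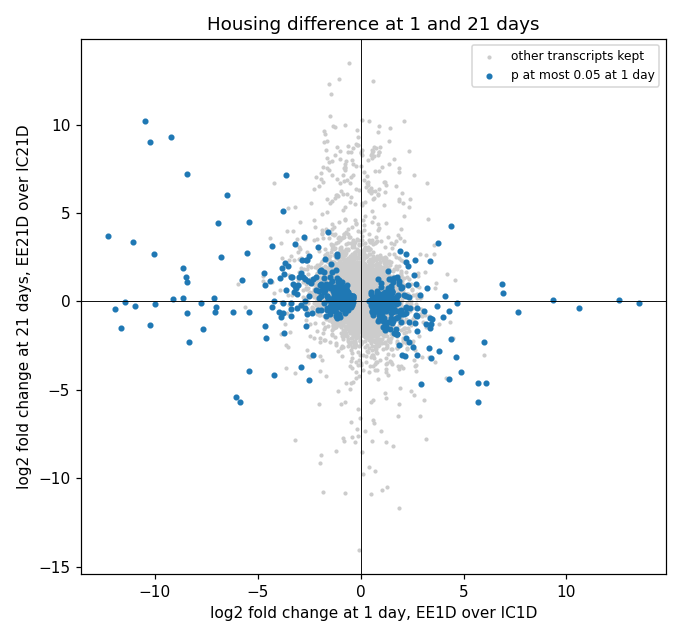
log2 fold change at 1 day (EE1D over IC1D, horizontal axis) against that at 21 days (EE21D over IC21D, vertical axis), 1 point per kept transcript, with those at a nominal p-value of 0.05 or less at 1 day in blue. The blue points lie in all 4 quadrants; 36.3% of the blue points have the same sign at both times.

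The difference between the 2 housing effects was tested in a model with all 12 rats and 1 coefficient per group. A pair of the 16820 transcripts (0.0119%) passed an adjusted p-value of 0.05, and 755 (4.49%) had a nominal p-value of 0.05 or less. They were chosen for description after their values were seen. ENSRNOT00000027258 had 86, 107 and 58 counts in IC1D and 0 in all EE1D rats, but 0 in all IC21D rats and 143, 66 and 97 in EE21D. The housing pattern was thus complete at both times and ran in opposite directions (adjusted p = 0.0349 for the difference from edgeR). The transcript was kept through IC1D alone, so the 1-day part of this difference had to be there. The p-value is no separate support for that part. At 1 day alone it was at least 20.1-fold lower in EE1D (adjusted p = 0.249 from edgeR). The call was lost, with adjusted p-values between 0.0501 and 0.214, when any 1 of the rats A2, A20, A23, A16, A13, A14 or A1 was left out.

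ENSRNOT00000072527 had 43, 37 and 60 counts in EE1D and 48, 74 and 71 in IC1D, that is 2.64 ± 0.370 CPM and 2.84 ± 0.942 CPM (SD, n = 3). At 1 day the housing conditions differed by less than the spread between rats, with a log2 fold change of -0.10 (95% interval -1.03 to 0.82, adjusted p = 0.996 from edgeR). At 21 days it had 0 counts in all IC21D rats and 86, 62 and 74 in EE21D, and was the single transcript past an adjusted p-value of 0.05 there (1 of 16820, 0.00595%, adjusted p = 0.0229 from edgeR). Its adjusted p for the difference was 0.0349, and leaving out any single rat other than A9, A24 or A3 took the call away, at 0.0676 to 0.214.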

How the data were processed

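Punches of the nucleus accumbens shell from both sides of a rat were pooled and their RNA sequenced. The authors aligned reads to the Ensembl release 92 rat genome with HISAT2 2.1.0, assembled and quantified reference transcripts with StringTie 1.3.3.1, merged the assemblies and quantified again. They deposited whole-number counts per Ensembl transcript, without normalization, in 1 file per rat. StringTie divides reads among isoforms, so an isoform's count, a count of 0 included, depends on that division, and how its coverage became whole counts is not given in the sources used here. Counts of antisense and overlapping transcripts are uncertain as well.

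The 6 rats at 1 day were compared by the quasi-likelihood test of edgeR 4.0.16 in R 4.3.3, after TMM scaling. P-values were adjusted by the Benjamini-Hochberg method over the 16820 transcripts with 10 or more counts in at least 3 rats, with a threshold of 0.05. DESeq2 1.42.0, the study's tool, and limma 3.58.1 served as alternatives. Intervals are 95% and use the quasi-likelihood degrees of freedom. Levels are TMM-normalized CPM, and log2 CPM used a prior count of 2. Folds against a group at 0 use a floor of 3 counts per library and cover counting error only, because amplified reads are not independent molecules. Total counts per rat set the precision and are given with the libraries. At the edge of the filter, 231 transcripts had a third-highest count of 10 and were kept, and 287 had 9 and were left out. No 2 of the 6 libraries held identical counts. By the study's account each sample is 1 rat, so p-values measure the spread between rats. Enriched rats were housed together, so EE1D rats that shared a cage would not be independent. Only the edgeR and DESeq2 comparisons of the groups at 1 day were first tried on simulated data. The limma fit and the fit of all groups together were not.

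The comparison and gene lists were chosen with earlier results of these data known. Named transcripts are those with the smallest p-values in each direction, overall and with counts in all 6 rats, and those the study ties to a gene. No table pairing transcripts with genes was used, so the gene and cell type marker lists and sums per gene were not analysed here. Alternatives covered test, scaling, filter, threshold, the groups fitted together and the omission of each rat.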

Additional observations from a re-analysis of the deposited data

Results flagged for a closer look

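The effect of housing differed between 1 and 21 days of abstinence for 2 transcripts by edgeR's test of the difference itself. For ENSRNOT00000027258 the log2 fold change of EE over IC was 18.59 larger at 21 days than at 1 day (adjusted p = 0.0349 from edgeR). That size depends on how the program treats the 0 counts in EE1D and IC21D. This transcript passed the filter through IC1D alone, so the 1-day part of its difference had to be there. For ENSRNOT00000072527 the log2 fold change was 8.98 larger (adjusted p = 0.0349 from edgeR), with 0 counts in IC21D. Both calls were lost when single rats were left out, as given above.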

How the results depend on the processing

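No transcript was called between EE1D and IC1D under edgeR with RLE or upper-quartile scaling, 3 other filters, the 8 abundant transcripts left out, all 12 rats in the fit or any rat left out, nor with limma. DESeq2 called 136 of the 16820 (0.809%), with 1281 at a nominal p-value of 0.05 or less, 536 higher and 745 lower. At an adjusted p-value under 0.1, edgeR called 7 (0.0416%). Leaving out each rat gave 316 to 822 transcripts at a nominal p-value of 0.05 or less. The count filter was applied anew for each of these fits, so the number tested differed among them. The transcripts at 0 in one group numbered 31, 19 with a minimum of 30 counts and 9 with 100, and 72 to 111 when 1 rat was left out, since fewer zeros are then needed. These minima, and the rats left out for the difference between housing effects, were chosen after seeing the data. That difference was called for 2 of the 16820 transcripts (0.0119%) with edgeR, and for 0 to 19 of them when 1 rat was left out. With DESeq2 it was called for 85 of the 16820, with 49 larger and 36 smaller at 21 days. For housing at 21 days DESeq2 called 83 of the 16820, 56 higher and 27 lower in EE21D. Leaving out single rats moved the log2 fold change of the Camk2d transcript between -3.46 and 1.78, that of the Eif4e2 transcript between 0.013 and 1.72 and that of ENSRNOT00000072527 at 1 day between -0.29 and 0.19. The causes of these moves were not tested. In the 1-day contrast, transcripts with under 10 counts in every rat of one group did not pass the count filter when a rat of the other group was left out, so they have no value there. Sums per gene were not run. No paired analysis was possible because the labels give groups no shared replicate numbers. Depth outside the abundant transcripts, 5360903 counts in the shallowest rat, limits what can be seen at low levels.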
